A study of Mus musculus with 10 samples.

Results

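Keratin-associated proteins, encoded by the Krtap genes, form the matrix in which the keratin filaments of the hair shaft are embedded. The Krtap genes measured here were those with a probe set whose only gene symbol is Krtap followed by a number, which gave 44 genes with 1 probe set each, of 19938 genes with a probe set of their own on the array. The 44 genes fell into 21 numbered subfamilies, with 21 genes on chromosome 16, 15 on chromosome 11, 5 on chromosome 7 and 3 on chromosome 10. The order of the genes on each chromosome was taken from the RefSeq table of GRCm38.p6, where all 44 were found by gene ID. A Krtap probe set that also carried other symbols was not counted among the 44 and is described at the end.

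RNA came from the epidermis of 3-day-old mice, freed from the dermis with dispase, and was hybridized to GeneChip Mouse Gene 1.0 ST Arrays, 1 array per mouse. The 5 ILK-deficient mice (K14Cre; Ilk f/f) were homozygous for a floxed Ilk allele and heterozygous for the KRT14-cre transgene. The 5 ILK-expressing mice (K14Cre; Ilk f/+) carried the same transgene but only 1 floxed allele. ILK, integrin-linked kinase, is a scaffold protein at sites where integrins attach cells to the matrix. The keratin 14 promoter that drives Cre is active in basal keratinocytes and in the outer root sheath of the follicle, so the allele is recombined in the epithelium and not in the dermis, and no mice without Cre were measured.

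Hair shaft cells arise in the matrix at the base of the growing follicle. As they move upward they make hair keratins first and keratin-associated proteins later, and disulfide bonds between the cysteines of both then harden the shaft. By composition the proteins fall into high sulfur, ultrahigh sulfur and high glycine-tyrosine classes. The genes are short, mostly have a single exon and lie in clusters, so that neighbors are often close copies of each other. In mouse skin the first coat of hair grows in the days around and after birth.

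The deposited values are log2 expression values, and a log2 fold change is the ILK-deficient mean minus the ILK-expressing mean, so that -1 is a halving. The Ilk probe set itself, which pools probes along the whole transcript, averaged 8.94 ± 0.12 on ILK-deficient and 9.17 ± 0.18 on ILK-expressing arrays (SD, n = 5 each), a log2 fold change of -0.23 with a limma adjusted p of 0.253. It therefore does not separate the genotypes and gives no check of the labels. Reading single exons on its arrays, the paper reports substantially lower signal for exons of the floxed part in ILK-deficient epidermis. It also reports much less ILK protein there by immunoblot. Of the epidermal markers, Krt5, Krt14, Krt1 and Krt10 were between 13.12 and 14.12 in the mean of either genotype. Each sample description opens with a mouse label. The label starts with D for ILK-deficient replicates 1 to 4 and ILK-expressing replicates 1 to 3, with D′ for ILK-deficient replicate 5 and ILK-expressing replicate 4, and with C′ for ILK-expressing replicate 5. What the letters stand for is not given in the sources used here. The 2 ILK-expressing mice without a D label, replicates 4 and 5, had the highest Krtap values, above all of replicates 1 to 3 for 41 of the 44 genes. Counts and medians over groups of genes, and the values of most genes called lower, are therefore given for all 10 arrays and again for the 7 arrays with a D label, the D arrays (4 ILK-deficient, 3 ILK-expressing).

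Krtap transcripts were lower in ILK-deficient epidermis. Of the 43 genes tested, 19 fell (limma, adjusted p under 0.05) and 0 rose, which is 44.2% of the genes against a background of 0.970% of all 32046 probe sets called lower and 2.81% called higher. For 38 of the 43 genes (88.4%), every ILK-deficient array was below every ILK-expressing array, where 1.96% of all probe sets had that pattern and 4.37% had the reverse. The median log2 fold change was -1.99 over the genes tested and -1.98 over all 44, while the median over all probe sets tested was 0.003. A log2 fold change below -1 was found for 37 of the genes and for 0.543% of all probe sets. Whole epidermis was measured, so fewer hair-forming cells and less RNA per cell cannot be told apart.

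The 44 genes on the ILK-deficient arrays stayed close together, and the ILK-expressing arrays spread widely. The SD between arrays had a median of 0.19 in ILK-deficient and 1.07 in ILK-expressing epidermis, and was smaller in the ILK-deficient group for 41 of 44 genes. ILK-deficient means ran from 5.56 (Krtap31-1) to 11.43 (Krtap17-1), and a linear value of 50 is 5.64 on this scale. Several lay close to it, such as Krtap6-3 at 5.82 and Krtap13-1 at 5.84. Whether low signal narrowed the spread or the fold changes was not tested. Taking for each gene the distance from its ILK-deficient mean, the median over the 44 genes was -0.13, -0.02, 0.11, 0.08 and -0.09 on ILK-deficient arrays 1 to 5 and 0.86, 1.17, 1.00, 2.88 and 3.34 on ILK-expressing arrays 1 to 5. The lowest ILK-expressing array was thus still 0.86 above the ILK-deficient mean, and replicates 4 and 5 were about 2 log2 units further up. Among the 5 ILK-expressing arrays, replicate 4 was highest for 27 genes and replicate 5 for 15, and replicate 1 was lowest for 26.

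**Figure D1:**
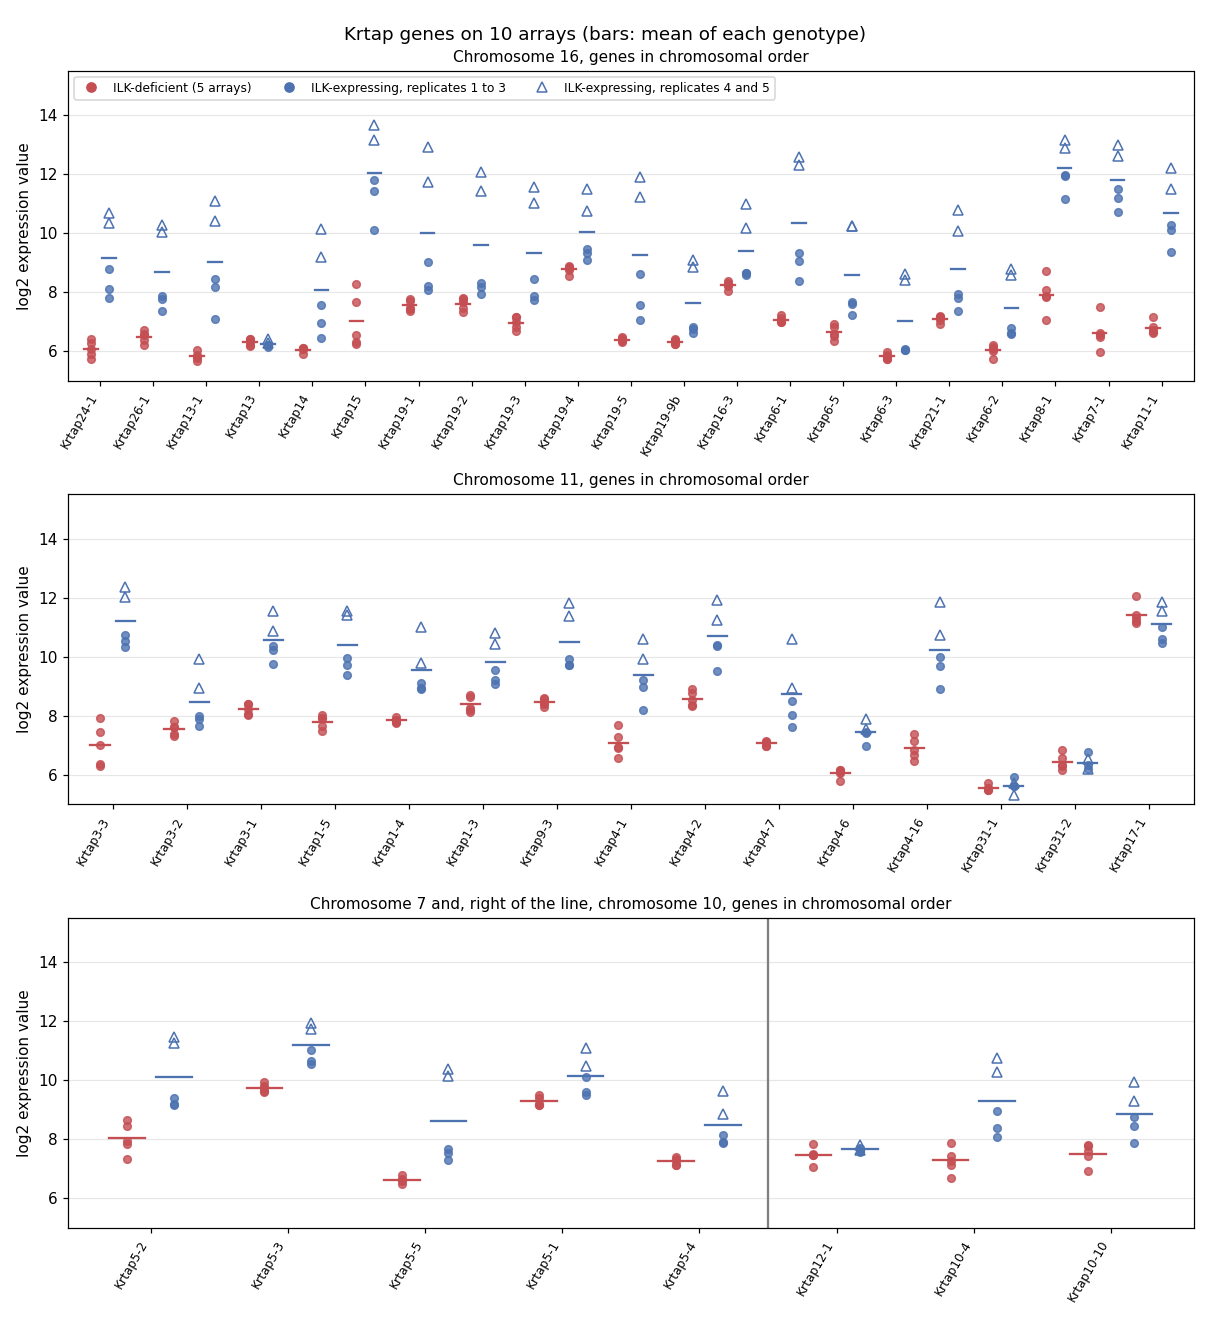
Deposited log2 expression values (vertical axis) of the 44 Krtap genes on the 10 arrays, genes in chromosomal order; red points are the 5 ILK-deficient arrays, blue points ILK-expressing replicates 1 to 3, open triangles ILK-expressing replicates 4 and 5, and short bars the mean of each genotype. For 38 genes all red points lie below all blue symbols, and for 41 genes both triangles lie above the 3 blue points.

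On the 7 arrays with a D label, 22 of the 43 genes fell (51.2%) and 0 rose, against a background of 0.315% of probe sets lower and 0.602% higher. Again 38 genes had no overlap, beside 3.57% of all probe sets. The median log2 fold change there was -0.98 against -1.99 on all arrays. Of the calls, 17 were shared, 5 were made only on the D arrays (Krtap5-4, Krtap5-5, Krtap26-1, Krtap19-3 and Krtap6-2) and 2 only on all arrays (Krtap1-3 and Krtap5-2). With the start of the label as a covariate, 19 genes fell (background 0.677%), with a median of -1.52. The C′ label occurs on 1 array only, so that array adds nothing to this fit, which rests on the D and D′ labels. Within the D′ labels, ILK-deficient replicate 5 minus ILK-expressing replicate 4 had a median of -2.91 over the 44 genes, from 1 array each.

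**Figure D2:**
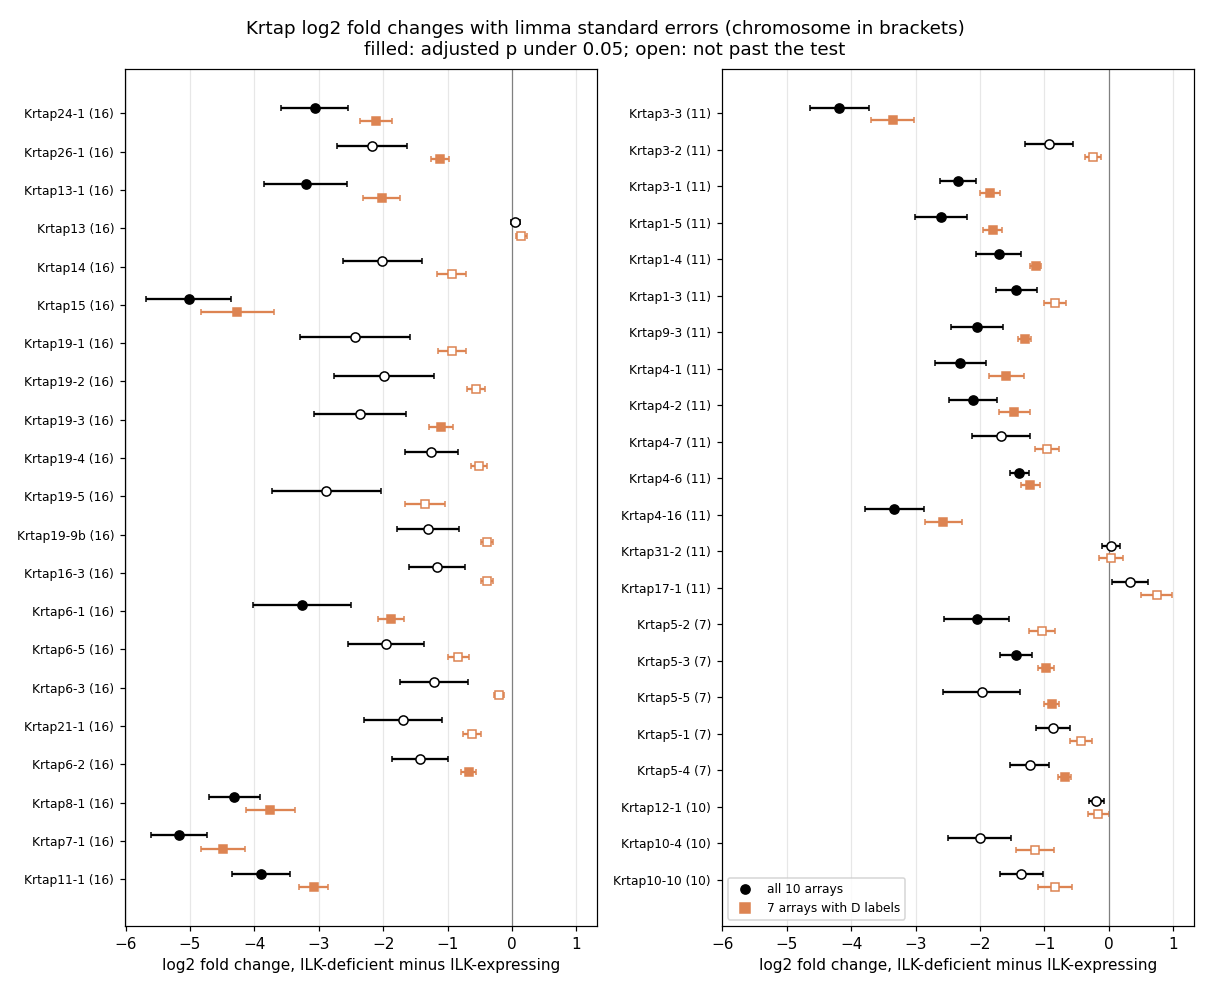
Log2 fold change, ILK-deficient minus ILK-expressing, with its limma standard error (horizontal axis) for the 43 genes tested; black circles are all 10 arrays, orange squares the 7 arrays with a D label, and a filled symbol has an adjusted p under 0.05. The circles of 19 genes and the squares of 22 are filled, all of them left of 0, and Krtap17-1, Krtap31-2 and Krtap13 lie to the right of it.

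The 5 genes with the largest falls came from 5 different subfamilies, 4 of them on chromosome 16. Krtap7-1, a high glycine-tyrosine gene known from wool and hair cortex, had log2 values of 5.99, 6.47, 7.51, 6.61 and 6.56 on ILK-deficient and 10.71, 11.20, 11.49, 12.97 and 12.63 on ILK-expressing arrays. The lowest ILK-expressing array was 3.20 above the highest ILK-deficient one, and the log2 fold change was -5.17 (SE 0.434, adjusted p = 0.000741, limma), or 36.0-fold lower. Krtap15, of the high sulfur class, had 6.26, 6.56, 8.28, 6.32 and 7.66 on ILK-deficient and 10.11, 11.44, 11.80, 13.67 and 13.16 on ILK-expressing arrays. ILK-deficient replicates 3 and 5 stood above the other ILK-deficient arrays, without reaching the ILK-expressing range, and the log2 fold change was -5.02 (SE 0.656, adjusted p = 0.00412).

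Krtap8-1, also a high glycine-tyrosine gene of the hair cortex, had 7.05, 8.07, 8.74, 7.86 and 7.84 on ILK-deficient and 11.15, 11.96, 11.92, 13.16 and 12.89 on ILK-expressing arrays, a log2 fold change of -4.31 (SE 0.396, adjusted p = 0.00103). Krtap11-1, a high sulfur gene known from the human hair cortex, had 6.66, 6.84, 7.16, 6.71 and 6.62 on ILK-deficient and 9.35, 10.12, 10.29, 12.21 and 11.50 on ILK-expressing arrays, a log2 fold change of -3.90 (SE 0.456, adjusted p = 0.00255). Krtap8-1, Krtap7-1 and Krtap11-1 are the last 3 genes of the chromosome 16 row, in that order, and in each the genotypes were far apart. On the D arrays alone their log2 fold changes were -3.75, -4.48 and -3.08 (adjusted p = 0.00855, 0.00368 and 0.00368), and that of Krtap15 was -4.26 (adjusted p = 0.0208).

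RefSeq promoters, from 250 bases before to 50 after the gene start, were at hand for 40 of the 44 genes, but not for Krtap7-1. The letters TATAAA, the core of a TATA box, were found in 32 of the 40 (80%) on either strand, and in 13.6% of all 32851 promoters of the table. On the gene's own strand, with the first T between 20 and 40 bases before the start, TATAAA was found in 23 of the 40 (57.5%) and in 1.99% of all promoters. The 70 bases before the start are shown for 4 genes with large falls and for 2 genes described below that did not fall, with TATAAA in capitals, 5′ to 3′ in the direction of the gene (RefSeq, GRCm38.p6).
Krtap8-1, chr16:89487953-89488022, minus strand: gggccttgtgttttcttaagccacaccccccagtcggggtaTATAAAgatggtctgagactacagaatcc
Krtap11-1, chr16:89571184-89571253, minus strand: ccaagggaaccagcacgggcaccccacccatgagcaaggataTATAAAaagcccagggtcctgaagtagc
Krtap4-16, chr11:99851606-99851675, minus strand: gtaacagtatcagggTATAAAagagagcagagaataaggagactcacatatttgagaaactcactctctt
Krtap15, chr16:88828939-88829008, plus strand: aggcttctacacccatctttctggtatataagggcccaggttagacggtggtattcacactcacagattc
Krtap17-1, chr11:99993995-99994064, minus strand: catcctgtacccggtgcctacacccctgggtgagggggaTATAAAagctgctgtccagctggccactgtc
Krtap13, chr16:88751629-88751698, minus strand: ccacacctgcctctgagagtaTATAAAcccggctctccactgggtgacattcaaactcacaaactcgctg
The run of Krtap15 holds tatataag in place of TATAAA, as does that of Krtap3-3, which is not shown. In Krtap4-16 and Krtap13 the TATAAA starts 55 and 49 bases before the start, outside the 20 to 40 bases counted above. A near-start TATAAA was present in 19 of the 35 genes whose genotypes did not overlap and in 4 of the other 5, so it was found on both sides. The 4 are Krtap3-2, Krtap17-1, Krtap31-1 and Krtap31-2, and the 70 bases of the last 2 are nearly the same. 2 further motifs were searched on both strands of the 300 bases. A form bound by HOXC13, a homeodomain factor of the hair shaft (TTTATN or TTAATN, followed by AA, AG, GA or GG), was found in 19 of the 40 (47.5%) and in 18.9% of all promoters, and TATAAA read on the other strand can overlap it. A form bound by LEF1, the factor through which Wnt signals act in the hair matrix (CTTTG, followed by AA, AT, TA or TT), was found in 18 of the 40 (45%) and in 16.9% of all promoters.

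On chromosome 11, the 12 genes of subfamilies 1, 3, 4 and 9 lie side by side in the row of measured genes. They encode high sulfur (1 and 3) and ultrahigh sulfur (4 and 9) proteins, which in sheep and human are found mainly in the hair cortex. Of the 12, 10 fell, 11 had no overlap and the median log2 fold change was -2.08. On the D arrays 9 fell, with a median of -1.39. Over all probe sets, 0.970% were called lower and 1.96% were lower without overlap, and 0.315% were called lower on the D arrays. This group of 12 was not among the planned ones. ILK-expressing replicate 5 was the highest array for 11 of the 12, and the median distance from the ILK-deficient mean was 1.44, 1.63, 1.11, 2.65 and 3.35 on ILK-expressing arrays 1 to 5.

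All 3 genes of subfamily 1 fell. Krtap1-5 had 7.93, 8.03, 7.92, 7.65 and 7.47 on ILK-deficient and 9.38, 9.95, 9.73, 11.56 and 11.40 on ILK-expressing arrays (log2 fold change -2.60, SE 0.404, adjusted p = 0.00798, and -1.80, adjusted p = 0.00539, on the D arrays). Krtap1-3, near the threshold of the test, had 8.18, 8.28, 8.65, 8.69 and 8.12 on ILK-deficient and 9.21, 9.56, 9.08, 10.44 and 10.79 on ILK-expressing arrays (log2 fold change -1.43, adjusted p = 0.0336, and 0.0774 on the D arrays). In both genes the 5 ILK-deficient arrays lay below all ILK-expressing arrays, by a narrower margin in Krtap1-3. Krtap1-4 had a log2 fold change of -1.71 (adjusted p = 0.0252, and -1.14, adjusted p = 0.00368, on the D arrays). The calls of Krtap1-3 and Krtap1-4 were lost on leaving out any 1 of 7 and 5 arrays (adjusted p of up to 0.0890 and 0.0654).

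In subfamily 3, Krtap3-3 had 6.31, 7.94, 7.01, 7.45 and 6.37 on ILK-deficient and 10.31, 10.74, 10.54, 12.02 and 12.35 on ILK-expressing arrays, with a log2 fold change of -4.18 (SE 0.453, adjusted p = 0.00203, and -3.36, adjusted p = 0.00862, on the D arrays). Krtap3-1 fell by 2.34 on the log2 scale (adjusted p = 0.00284, and -1.85, adjusted p = 0.00539, on the D arrays). Their neighbor Krtap3-2, which lies between them, had 7.81, 7.39, 7.61, 7.61 and 7.31 on ILK-deficient and 7.66, 7.98, 7.90, 8.93 and 9.91 on ILK-expressing arrays. Its ILK-deficient replicate 1 lay above ILK-expressing replicate 1, and its log2 fold change of -0.93 did not pass the test (adjusted p = 0.241). A test of the difference between neighbors was not made, since each probe set has its own scale.

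Of the 5 genes of subfamily 4, 4 fell. Krtap4-16 had 6.47, 7.37, 6.84, 7.16 and 6.68 on ILK-deficient and 9.69, 9.99, 8.90, 10.75 and 11.84 on ILK-expressing arrays (log2 fold change -3.33, SE 0.458, adjusted p = 0.00515, and -2.57, adjusted p = 0.0111, on the D arrays). Krtap4-6 had a smaller fold change but the tightest ILK-expressing arrays of the subfamily, with 5.79, 6.08, 6.17, 6.17 and 6.08 on ILK-deficient and 7.42, 7.43, 6.97, 7.56 and 7.88 on ILK-expressing arrays (log2 fold change -1.39, SE 0.148, adjusted p = 0.00203, and -1.22, adjusted p = 0.0159, on the D arrays). Neither gene had overlapping genotypes. Krtap4-1 and Krtap4-2 had log2 fold changes of -2.30 and -2.11 (adjusted p = 0.0126 and 0.0148), and -1.59 and -1.46 on the D arrays (adjusted p = 0.0477 and 0.0393). Krtap4-7 had -1.67 and did not pass (adjusted p = 0.0736), with ILK-expressing replicate 5 at 10.60 and the other 4 between 7.62 and 8.95.

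Krtap9-3, the single measured gene of subfamily 9, had 8.31, 8.41, 8.59, 8.56 and 8.44 on ILK-deficient and 9.71, 9.71, 9.90, 11.38 and 11.82 on ILK-expressing arrays. It fell by 2.04 on the log2 scale (adjusted p = 0.0213, and -1.31, adjusted p = 0.00368, on the D arrays), with all ILK-deficient arrays within 0.28 of each other and the ILK-expressing arrays spread over more than 2 log2 units. Without ILK-deficient replicate 1, 2 or 5 it did not pass (adjusted p of up to 0.0563).

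At the other end of the chromosome 11 row, none of the last 3 genes was called. Krtap31-1 had 5.49, 5.48, 5.57, 5.73 and 5.54 on ILK-deficient and 5.62, 5.61, 5.93, 5.73 and 5.30 on ILK-expressing arrays and was at or above a linear value of 50 on only 3 arrays, so it was not tested. Krtap31-2 had 6.34, 6.17, 6.57, 6.83 and 6.30 on ILK-deficient and 6.34, 6.78, 6.20, 6.54 and 6.18 on ILK-expressing arrays, with a log2 fold change of 0.03 (adjusted p = 0.960). In both genes the genotypes overlapped throughout, and ILK-expressing replicates 4 and 5 did not stand above the other ILK-expressing arrays. Both genes lay below the array medians of 7.07 to 7.17, and whether their transcripts were detected was not tested.

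Krtap17-1, the only member of the ultrahigh sulfur subfamily 17, had 11.13, 11.32, 12.06, 11.21 and 11.40 on ILK-deficient and 10.46, 11.01, 10.59, 11.86 and 11.56 on ILK-expressing arrays. It was the gene with the highest fold change of the 44, 0.33 (SE 0.280, adjusted p = 0.692), and its genotypes overlapped because ILK-expressing replicates 4 and 5 reached the ILK-deficient range. On the D arrays, every ILK-deficient value was above every ILK-expressing one, with a log2 fold change of 0.74 (SE 0.238) that did not pass the test (adjusted p = 0.256). Between the 2 arrays with D′ labels the difference was -0.45.

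On chromosome 16 the 21 genes divide by position into a middle stretch of 12 genes, subfamilies 6, 16, 19 and 21, and 9 genes on its sides. This split was not among the planned groups, and the 9 pool both ends of the row. The difference between the parts was not tested. The 9 outer genes include the high sulfur subfamilies 11, 13, 14, 15, 24 and 26 and the high glycine-tyrosine genes Krtap7-1 and Krtap8-1. Of the 9, 6 fell, 8 had no overlap, and the median log2 fold change was -3.21 on all arrays and -2.11 on the D arrays, where 7 fell. Of the 12 genes in the middle, 1 fell on all arrays and 3 on the D arrays, although all 12 had no overlap, and their medians were -1.82 and -0.64. Over all probe sets, 0.970% were called lower on all arrays and 0.315% on the D arrays, and 1.96% were lower without overlap on all arrays. In the middle stretch the median distance from the ILK-deficient mean was 0.64, 0.57, 0.70, 3.28 and 3.64 on ILK-expressing arrays 1 to 5, against 1.71, 2.70, 2.33, 5.25 and 4.57 for the 9 outer genes.

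Krtap24-1, a high sulfur gene known from the human hair cuticle, is the first gene of the row. It had 5.73, 6.40, 6.08, 6.28 and 5.92 on ILK-deficient and 7.79, 8.78, 8.12, 10.68 and 10.35 on ILK-expressing arrays (log2 fold change -3.06, SE 0.520, adjusted p = 0.0119, and -2.11, adjusted p = 0.0127, on the D arrays). Its neighbor Krtap26-1 had 6.37, 6.59, 6.57, 6.74 and 6.22 on ILK-deficient and 7.38, 7.78, 7.87, 10.28 and 10.05 on ILK-expressing arrays, a log2 fold change of -2.18 that missed the threshold (adjusted p = 0.0546) and passed on the D arrays with -1.11 (adjusted p = 0.0175). In both genes ILK-expressing replicates 4 and 5 were more than 1.5 log2 units above the other ILK-expressing arrays, and no ILK-deficient array reached the lowest of them.

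The next genes gave unlike results next to each other. Krtap13-1 had 5.82, 5.76, 6.04, 5.89 and 5.67 on ILK-deficient and 7.10, 8.45, 8.16, 11.09 and 10.41 on ILK-expressing arrays, and fell by 3.21 on the log2 scale (SE 0.647, adjusted p = 0.0243, and -2.03, adjusted p = 0.0262, on the D arrays). Without ILK-deficient replicate 1, 2, 4 or 5 that call was lost (adjusted p of up to 0.0641). Krtap13, of the same high sulfur subfamily, had 6.42, 6.21, 6.41, 6.32 and 6.19 on ILK-deficient and 6.21, 6.22, 6.16, 6.29 and 6.42 on ILK-expressing arrays, a log2 fold change of 0.05 (SE 0.0724, adjusted p = 0.853). Its 10 arrays lay within 0.26 of each other, with the genotypes mixed. All 10 values were below the array medians of 7.07 to 7.17, and whether the Krtap13 transcript was detected in either genotype was not tested. Krtap14 had 6.08, 5.90, 6.12, 6.11 and 6.06 on ILK-deficient and 6.44, 6.96, 7.58, 10.15 and 9.21 on ILK-expressing arrays, without overlap, and its log2 fold change of -2.01 did not pass (SE 0.610, adjusted p = 0.110).

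The 6 genes of subfamily 19, small high glycine-tyrosine proteins, had alike differences and none was called. All 6 had no overlap, with log2 fold changes between -2.88 and -1.25 and a median of -2.18, and 0 passed the test on all arrays, where the background is 0.970%. The largest difference was in Krtap19-5, with 6.45, 6.47, 6.34, 6.30 and 6.39 on ILK-deficient and 7.07, 7.55, 8.60, 11.91 and 11.21 on ILK-expressing arrays (log2 fold change -2.88, SE 0.848, adjusted p = 0.100). The ILK-deficient arrays covered 0.17 log2 units and the ILK-expressing arrays nearly 5. For all 6 genes replicate 4 was the highest array, and the median distance from the ILK-deficient mean was 0.61, 0.61, 1.08, 4.54 and 3.94 on ILK-expressing arrays 1 to 5. On the D arrays 1 of the 6 fell, Krtap19-3 (log2 fold change -1.10, adjusted p = 0.0429), and the median was -0.75.

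Krtap16-3, of a subfamily known in mouse hair for its response to changed Hoxc13 dose, had 8.31, 8.05, 8.39, 8.23 and 8.23 on ILK-deficient and 8.59, 8.66, 8.64, 10.99 and 10.17 on ILK-expressing arrays. The lowest ILK-expressing array exceeded the highest ILK-deficient one by 0.20, and the log2 fold change of -1.17 did not pass (adjusted p = 0.199). Krtap21-1 had 6.93, 7.15, 7.04, 7.19 and 7.18 on ILK-deficient and 7.93, 7.36, 7.80, 10.07 and 10.79 on ILK-expressing arrays (log2 fold change -1.69, adjusted p = 0.176). Its ILK-expressing replicate 5 was the highest array, as it also was for Krtap6-2 of the 12 genes in the middle, replicate 4 being the highest for the other 10.

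Of the 4 high glycine-tyrosine genes of subfamily 6, 1 fell. Krtap6-1 had 7.00, 7.03, 7.21, 6.98 and 7.14 on ILK-deficient and 8.39, 9.06, 9.33, 12.58 and 12.31 on ILK-expressing arrays (log2 fold change -3.26, SE 0.764, adjusted p = 0.0422, and -1.87, adjusted p = 0.0100, on the D arrays). The call of Krtap6-1 was lost on leaving out any 1 of 9 arrays, with an adjusted p of up to 0.0959. The ILK-deficient arrays differed by 0.23 from lowest to highest, and the lowest ILK-expressing array was more than 1 log2 unit above them. Krtap6-5, Krtap6-3 and Krtap6-2 had log2 fold changes of -1.96, -1.21 and -1.43 on all arrays, none past the test (adjusted p = 0.110, 0.294 and 0.112). Of these, Krtap6-2 passed on the D arrays (log2 fold change -0.67, adjusted p = 0.0469).

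The 5 genes on chromosome 7 all belong to subfamily 5, ultrahigh sulfur proteins known from the hair cuticle of sheep and human. All 5 had no overlap, 2 fell, and the median log2 fold change was -1.44, and -0.89 on the D arrays, where 3 fell. The shares over all probe sets were 1.96% lower without overlap and 0.970% called lower, and 0.315% called lower on the D arrays. Krtap5-2 had 7.84, 7.95, 8.44, 8.66 and 7.34 on ILK-deficient and 9.19, 9.40, 9.17, 11.48 and 11.25 on ILK-expressing arrays (log2 fold change -2.05, SE 0.497, adjusted p = 0.0487, and 0.0686 on the D arrays). Krtap5-4, just past the threshold on the other side, had 7.13, 7.25, 7.33, 7.41 and 7.11 on ILK-deficient and 7.90, 8.13, 7.86, 9.62 and 8.86 on ILK-expressing arrays (log2 fold change -1.23, SE 0.301, adjusted p = 0.0508, and 0.0327 on the D arrays). The 2 genes had the same pattern, with ILK-expressing replicates 4 and 5 above 1 to 3, and the side of the threshold they took depended on the arrays used. The call of Krtap5-2 was lost on leaving out any 1 of 8 arrays, with an adjusted p of up to 0.123. Krtap5-3 fell on both sets of arrays (log2 fold change -1.44, adjusted p = 0.0139, and -0.98, adjusted p = 0.0208, on the D arrays). Krtap5-5 fell on the D arrays only (log2 fold change -0.89, adjusted p = 0.0178), and Krtap5-1 on neither (-0.87, adjusted p = 0.112, and -0.43, adjusted p = 0.354).

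None of the 3 genes on chromosome 10 passed the test on either set of arrays. They belong to subfamilies 10 and 12, high sulfur proteins known from the human hair cuticle. Krtap10-4 had 7.26, 7.44, 6.70, 7.88 and 7.14 on ILK-deficient and 8.06, 8.40, 8.94, 10.75 and 10.28 on ILK-expressing arrays, without overlap (log2 fold change -2.003, SE 0.491, adjusted p = 0.0511). Krtap10-10 also had no overlap (log2 fold change -1.36, adjusted p = 0.0557). Krtap12-1 had 7.83, 7.46, 7.07, 7.49 and 7.47 on ILK-deficient and 7.61, 7.56, 7.70, 7.79 and 7.62 on ILK-expressing arrays. Its ILK-deficient replicate 1 was the highest of all 10 arrays and replicate 3 the lowest, and the log2 fold change was -0.19 (SE 0.119, adjusted p = 0.529).

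**Figure D3:**
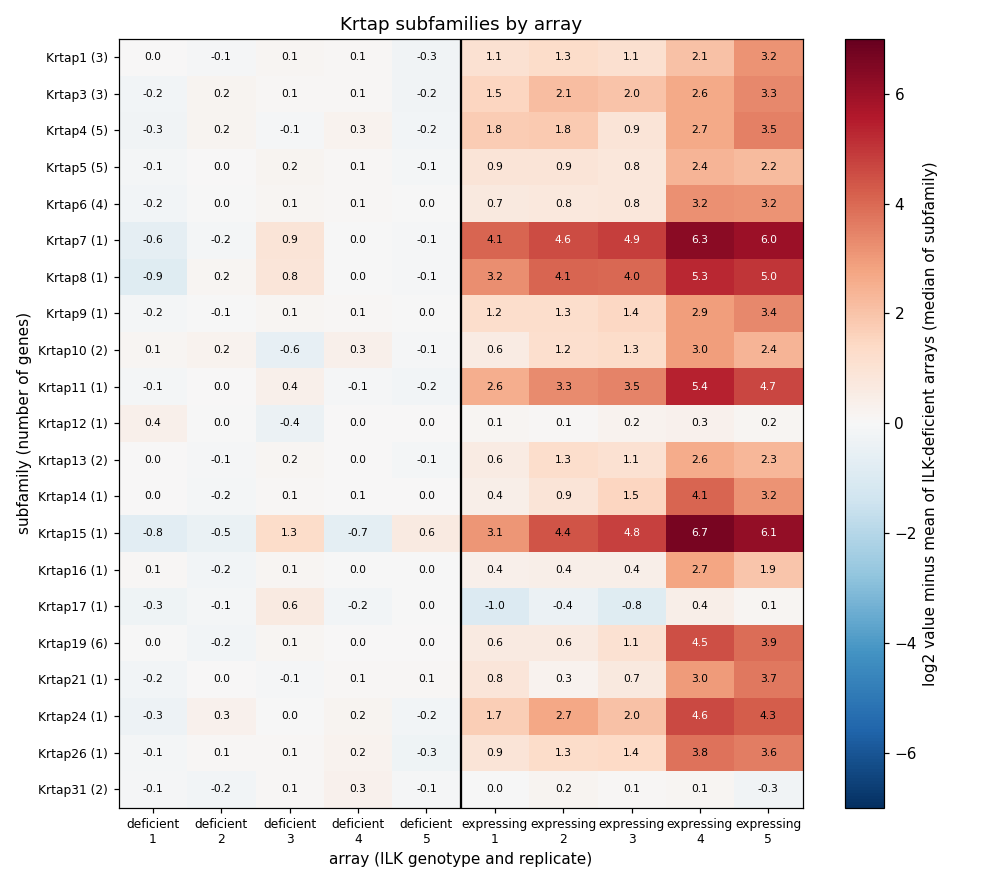
Median over the genes of each Krtap subfamily (rows, number of genes in brackets) of the log2 value minus the gene's ILK-deficient mean, on each array (columns, ILK-deficient left of the line). ILK-deficient columns lie between -0.86 and 1.26, within 0.4 of 0 in 16 of the 21 subfamilies (not in 7, 8, 10, 15 and 17), and ILK-expressing columns 4 and 5 lie above the other 8 columns in 18 (not in 12, 17 and 31).

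By composition class, the medians were close and the share of calls differed. High sulfur genes had a median of -2.09 with 9 of 16 called lower, ultrahigh sulfur genes -1.83 with 7 of 12, and high glycine-tyrosine genes -1.99 with 3 of 13. On the D arrays the medians were -1.14, -1.004 and -0.83, and 9, 8 and 5 genes fell. No overlap was found for 13 of 16, 11 of 12 and 13 of 13 genes. The shares over all probe sets were 0.970% called lower, 0.315% called lower on the D arrays, and 1.96% lower without overlap on all arrays. The difference between classes was not tested. For 19 genes the genotypes did not overlap but the test was not passed, with log2 fold changes from -2.88 to -0.87 and adjusted p from 0.0508 to 0.294. The median SD between the arrays of a genotype was 0.14 in ILK-deficient and 1.35 in ILK-expressing epidermis for these 19, and 0.25 and 0.96 for the 19 called genes.

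The 15 probe sets that carry several symbols, at least 1 of them a Krtap, were described apart from the 44 genes. All 15 had a log2 fold change below 0, between -2.29 and -0.90 with a median of -1.67. Of them 10 fell, beside 0.970% of all probe sets called lower. Several carry the same symbols as another, those with Krtap2-4 and those with Krtap4-13, so the 15 are not separate groups of genes. The probe sets of subfamily 5 and that of Krtap20-2 did not pass. They stand for groups of close copies in subfamilies 2, 4, 5, 6, 9, 10 and 20, among which the probes cannot choose.

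Keratins of the hair shaft, the filaments that these proteins surround, were lower as well. Of 13 hair shaft keratins with a probe set of their own, 8 fell and 0 rose, and the median log2 fold change was -1.82. No overlap was found for 12, where 0.970% of all probe sets were called lower and 1.96% were lower without overlap. Krt81, Krt83 and Krt85 had no such probe set. By the D arrays alone 7 of the 13 fell, beside 0.315% of all probe sets, with a median of -1.15. Krt33a, a type I keratin of the hair cortex, averaged 7.85 ± 0.47 in ILK-deficient and 11.90 ± 0.99 in ILK-expressing epidermis (SD, n = 5 each), with a log2 fold change of -4.04 (limma, adjusted p = 0.00203). Krt31, its close relative, had a log2 fold change of -4.01 (adjusted p = 0.00304). The median distance from the ILK-deficient mean was 1.05, 1.85, 0.68, 2.68 and 2.92 on ILK-expressing arrays 1 to 5, so replicates 4 and 5 were again the highest.

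Calls were also made in other lists of shaft and related genes, beside the same 0.970% of all probe sets lower (0.315% on the D arrays). Of 7 genes for cross-linking and related calcium-binding proteins of the shaft and inner root sheath, 4 fell, with a median of -0.95, among them Tchh, the trichohyalin gene, which is also one of the inner root sheath markers below (log2 fold change -4.08, adjusted p = 0.00117), and Tgm3, a transglutaminase (-0.94, adjusted p = 0.00203). Tgm1, the transglutaminase of the cornified envelope, had -0.22 and did not pass (adjusted p = 0.191). Of 13 genes listed for other cysteine-rich or shaft proteins 7 fell, with a median of -2.16. Restricted to the D arrays, 5 of the 7 and 4 of the 13 fell, with medians of -0.86 and -1.23. Prr9 had the largest change among them (log2 fold change -4.34, adjusted p = 0.00211), and the others that fell included Gprc5d (-3.88, adjusted p = 0.00203).

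Among factors that bind or control hair shaft genes, genes moved in both directions. Of 16 such genes 1 fell and 2 rose, beside 0.970% of all probe sets lower and 2.81% higher, with log2 fold changes from -0.92 to 0.66 and a median of -0.07. With the D arrays alone, 0 fell and 1 rose (Trps1), with a median of 0.07. Dlx3, a homeodomain factor of the hair matrix and differentiating epidermis, fell (log2 fold change -0.80, adjusted p = 0.0332), and Trps1, a repressor with a role in hair growth, and Runx1 rose (0.66, adjusted p = 0.00355, and 0.44, adjusted p = 0.0236). Hoxc13 averaged 7.71 ± 0.41 in ILK-deficient and 8.41 ± 0.64 in ILK-expressing epidermis (SD, n = 5 each), a difference that did not pass (log2 fold change -0.69, adjusted p = 0.287). Lef1 and Foxn1, the nude gene that drives hair keratin expression, had log2 fold changes of 0.07 and -0.11 (adjusted p = 0.944 and 0.865).

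**Figure D4:**
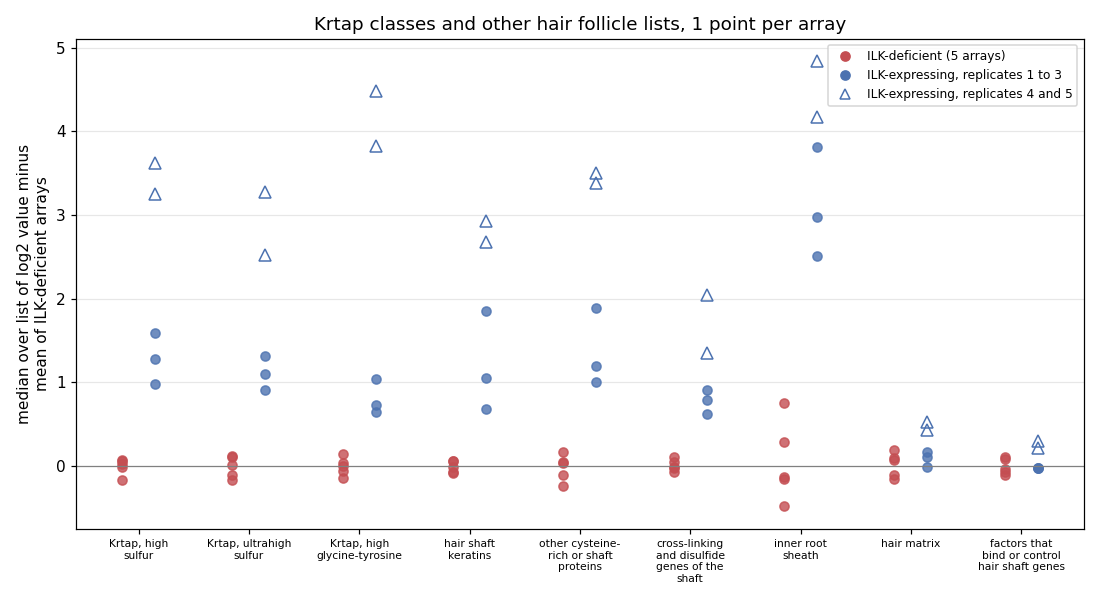
Median over each list of the log2 value minus the gene's ILK-deficient mean (vertical axis), 1 point per array; red points are the 5 ILK-deficient arrays, blue points ILK-expressing replicates 1 to 3, and open triangles ILK-expressing replicates 4 and 5. In the 3 Krtap classes, the hair shaft keratins, the other cysteine-rich or shaft proteins and the cross-linking genes the triangles lie above the blue points. The medians of the lists of hair matrix genes and of control factors stay between -0.16 and 0.52. Of the single genes, 1 control factor fell and 2 rose, and 0 hair matrix markers passed the test.

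Markers of other parts of the follicle and of other cells were read on the same arrays. Of all probe sets 0.970% were called lower and 2.81% higher, and 0.315% and 0.602% on the D arrays. All 7 inner root sheath markers fell, with a median log2 fold change of -3.65, and their median distances on ILK-expressing arrays were 2.98, 3.81, 2.51, 4.84 and 4.17. Of 5 markers of the outer root sheath and bulge, 4 rose, with a median of 0.46, and 0 of 5 hair matrix markers passed the test, with log2 fold changes from -0.92 to 0.44 (median -0.11). Among these Msx2, a homeodomain factor of the matrix, was without overlap, with 7.19 to 7.49 on ILK-deficient and 7.50 to 8.97 on ILK-expressing arrays (log2 fold change -0.92, adjusted p = 0.0955). On ILK-expressing replicate 4, Hoxc13 (9.13), Msx2 (8.81) and Foxn1 (10.14) were above their ILK-deficient means (7.71, 7.31 and 9.71). Shh (8.04) and Lef1 (8.74) were below theirs on that array (9.11 and 9.58). On ILK-expressing replicate 5, Hoxc13 (8.94), Msx2 (8.97), Foxn1 (10.23) and, barely, Lef1 (9.62) were above their ILK-deficient means. Shh (8.96) was below its mean there. Of 6 melanocyte markers, 4 rose, with a median of 1.41, and the sum of their 6 log2 values was 55.57 to 61.09 on ILK-deficient and 45.20 to 52.46 on ILK-expressing arrays. None of the 4 sebaceous gland markers passed the test (median -0.78), though on ILK-expressing replicates 4 and 5 their median distance from the ILK-deficient mean was 1.27 and 1.71, and 0.16 to 0.41 on replicates 1 to 3. Of the interfollicular markers, 1 of 5 basal genes (Krt14, log2 fold change -0.23, adjusted p = 0.0452) and 0 of 4 suprabasal genes fell. No marker of Langerhans cells, epidermal T cells, dermal fibroblasts, dermal papilla, muscle, endothelium or Merkel cells passed the same test. In the D arrays, 4 of 7 inner root sheath markers fell, 2 of 5 outer root sheath and bulge markers rose, 0 of 6 melanocyte markers and none of the other markers passed, and the medians were -3.08, 0.62 and 1.37 in these 3 lists. The part of follicle stage, cell number or the unexplained label letters in the Krtap differences was not tested.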

How the data were processed

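The authors measured 10 epidermis samples on Mouse Gene 1.0 ST arrays and deposited log2 values per probe set after background adjustment and quantile normalization. Their methods name both RMA and GC-RMA, and which made the table is not stated. Differences are therefore relative to all probe sets, although the deposited distributions were not identical (array medians 7.07 to 7.17), and 5 arrays per genotype limit the precision. The deposited values were used unchanged. Symbols came from the platform annotation, with 21789 probe sets carrying 1 symbol, 1621 several and 12146 none.

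A probe set entered the test if at least 5 arrays reached a linear value of 50 (32046 did, 3510 did not). The genotypes were compared with limma 3.58.1 in R 4.3.3, without block or covariate, with Benjamini-Hochberg adjustment across the 32046. Per-array values are given for the gene of each subfamily with the largest fall, for genes above -0.5, for 3 genes on each side of the threshold, and for a few neighbors chosen after their values were seen. Composition classes follow textbook assignments of subfamily numbers, since protein sequences were not used here, and subfamilies 16 and 31 stayed unclassified. Members and lists were chosen with earlier results of these data known. Alternatives changed the filter, scaling, test, block, covariate and arrays.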

Additional observations from a re-analysis of the deposited data

Results flagged for a closer look

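In 88 groups of 5 arrays (44 genes, 2 genotypes), a single array stood far from the other 4 in 2 groups by Dixon's test, which by chance picks about 1 group in 20. For Krtap4-6, ILK-deficient replicate 1 was at 5.79, with the other ILK-deficient arrays between 6.08 and 6.17. For Krtap14, ILK-deficient replicate 2 was at 5.90, with the others between 6.06 and 6.12. Both arrays were low in the genotype that was already lower.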

How the results depend on the processing

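Over all alternatives, 821 of 903 values of single genes stayed on their side of the threshold, 56 lost it, 26 newly passed and 0 reversed. Of the 19 genes called lower, 12 stayed called under all 21 settings. The others were lost under 15 settings (Krtap5-2), 13 (Krtap6-1), 10 (Krtap1-3), 7 (Krtap1-4), 6 (Krtap13-1), 4 (Krtap9-3) and 1 (Krtap4-2). By one-way analysis of variance without moderation, 12 Krtap genes were called, and the median log2 fold change was -1.66 with array quality weights and -0.98 on the arrays with a D label. The share of all probe sets called was 3.78%, and 2.14% by analysis of variance, 1.90% with the replicate block and 0.917% on the arrays with a D label (fewer arrays). Quantile normalization of the deposited values again gave 481 probe sets lower, against 311. For the hair follicle and marker lists, D-label values were added after seeing the data. In 1 list the median moved by more than the SD of its ILK-expressing array values (outer root sheath and bulge, 0.62 against 0.46). That SD includes replicates 4 and 5, which the D arrays leave out, and is wide where they stood highest. Hair shaft keratins, for example, moved from -1.82 to -1.15 and other cysteine-rich or shaft proteins from -2.16 to -1.23 without exceeding it.

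Leaving out 1 array at a time gave 13 to 23 called Krtap genes, 38 to 40 without overlap, median log2 fold changes of -2.24 to -1.59, and 1.86% to 3.15% of all probe sets called. That share moved by more than 1.5 times without ILK-deficient replicate 1 (2.25%), 2 (2.36%) or 5 (1.86%) and without ILK-expressing replicate 2 (2.49%) or 4 (2.03%). The adjusted p then ranged from 0.0478 to 0.123 for Krtap5-2 (lost on leaving out any of 8 arrays), 0.0275 to 0.0959 for Krtap6-1 (9 arrays), 0.0282 to 0.0890 for Krtap1-3 (7 arrays), 0.00455 to 0.0654 for Krtap1-4 (5 arrays), 0.0130 to 0.0641 for Krtap13-1 (ILK-deficient replicates 1, 2, 4 and 5) and 0.0198 to 0.0563 for Krtap9-3 (ILK-deficient replicates 1, 2 and 5). The cause was not tested.

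No pairing of the mice by replicate number was seen, though this check cannot exclude a shared litter or shared handling. The correlation of same-numbered deviations was -0.02, -0.30, -0.18, -0.11 and 0.11, and with the replicate number as a block 14 Krtap genes were called.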
